A study of Homo sapiens with 6 samples.

Results

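The 10 genes described here encode the subunits of the transcription factor NF-kB and proteins that restrain or are induced by it: RELA, RELB, REL, NFKB1, NFKB2, NFKBIA, NFKBIB, NFKBIE, TNFAIP3 and BIRC3. They were chosen by name as members of this pathway, with earlier results of these data known, and all 10 were found among the 20036 genes of the deposited table. KGN cells, an established human line from an ovarian granulosa cell tumour labelled wild type, were transfected using Lipofectamine 3000 with siOGT1 or siOGT2, small interfering RNAs against the mRNA of OGT, or with the siNC siRNA. OGT encodes the enzyme that attaches O-GlcNAc, a single sugar, to nuclear and cytosolic proteins. RNA was taken 48 hours after transfection, from 2 libraries of siOGT1, 2 of siOGT2 and 2 of siNC. All 3 groups were exposed to transfected RNA, and untransfected cells were not analysed here.

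NF-kB is a dimer of Rel family proteins. In resting cells it is held in the cytosol by IkB proteins, and the IkB kinase complex marks these for destruction by the proteasome, which frees the dimer to enter the nucleus. RELA pairs mostly with p50, the processed product of NFKB1, in the canonical pathway, and RELB pairs with p52, from NFKB2, in the non-canonical pathway. Several NF-kB target genes encode brakes on the pathway, among them the inhibitor NFKBIA (IkB alpha) and the ubiquitin-editing enzyme TNFAIP3 (A20). RELA and REL proteins are known to carry O-GlcNAc, which mRNA levels do not report.

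6 of the 10 genes had lower mRNA with siOGT2 than with siNC: RELB, NFKB2, NFKBIA, NFKBIE, TNFAIP3 and BIRC3. Of all tested genes 35.5% were called with siOGT2, with 13.4% lower. TNFAIP3 and BIRC3 were also lower with siOGT1, where 17.6% of all tested genes were called, with 8.1% lower. RELA, NFKB1 and NFKBIB did not pass the test with either siRNA, and REL was too low to be tested. Each of the 6 genes was lower with siOGT2 than with siOGT1 by a test of that difference, in which 16.6% of all tested genes were called. That test uses the same siOGT2 libraries by which the 6 genes were picked, so it is not separate support.

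The sequences shown first are the kB sites, the DNA element that NF-kB dimers bind, in the promoters of the genes that were lower with siOGT2 and hold 1, as landmarks for these genes. RefSeq promoter windows (GRCh38.p14, 250 bases before to 50 bases after a start site) were found for 8 of the 10 genes, not for RELB or NFKBIE. The kB consensus, of 10 bases, was searched on both strands. At least 1 match was present in 7 of these 8 genes, against 1486 of 8692 tested genes with a window (17.1%). The sets are not fully alike: the 8 include REL, which was too low to be tested. They also had more windows per gene, 1.62 on average against 1.47. Each stretch below reads 5′ to 3′ on the gene's strand with the match in capitals. Position -1 is the last base before the RefSeq start site of the window. The gene spans given below can begin earlier, so some matches, among them those of TNFAIP3 and NFKB2, lie inside those spans.
NFKBIA: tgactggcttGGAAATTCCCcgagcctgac
TNFAIP3, first site: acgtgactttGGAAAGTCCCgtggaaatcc
TNFAIP3, second site: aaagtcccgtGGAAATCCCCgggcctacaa
BIRC3, first site: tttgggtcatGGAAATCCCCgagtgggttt
BIRC3, second site: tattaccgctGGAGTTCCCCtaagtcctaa
NFKB2, second start site: gaaacgtcatGGGAATTCCCccctccgggg
NFKB2, second start site, later match: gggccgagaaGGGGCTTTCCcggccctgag
NFKB2, last start site: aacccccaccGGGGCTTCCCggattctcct
NFKB2, last start site, later match: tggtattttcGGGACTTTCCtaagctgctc

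The NFKBIA stretch lies at chr14:35404811-35404840 on the minus strand, with the match from position -81. The TNFAIP3 stretches lie at chr6:137867182-137867211 and chr6:137867194-137867223 on the plus strand, with matches from -67 and -55. The BIRC3 stretches lie at chr11:102317275-102317304 and chr11:102317339-102317368 on the plus strand, with matches from -199 and -135. The NFKB2 stretches of the second start site lie at chr10:102394461-102394490 and chr10:102394490-102394519 on the plus strand, with matches from -107 and -78. Those of the last start site lie at chr10:102395519-102395548 and chr10:102395674-102395703, with matches from -176 and -21. NFKB2 had 3 windows, with 0, 3 and 2 matches, and 2 of the 3 matches in its second window overlap, of which the first is shown.

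Matches were not limited to genes that changed. NFKB1, which did not pass, held 1 match from position -49, and NFKBIB, which did not pass either, held 3 in its second window, of which 2 overlap. Their first matches are shown for comparison, on the plus strand at chr4:102501300-102501329 and chr19:38899931-38899960.
NFKB1: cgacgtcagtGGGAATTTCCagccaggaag
NFKBIB: gggcgtggtgGGGAATTTCCcgcagggcgg
REL held 2 overlapping matches, and neither RELA window held a match. A match of letters is not a measured binding site, and a missing match says only that these letters are not in the window.

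All levels are the authors' FPKM, fragments per kilobase of gene length and per library total. Reads per gene could be worked back from the FPKM steps, and library totals ran from 16756649 to 21416489 reads, with the lowest in siOGT2 replicate 2. OGT mRNA, the check of the labels, fell to 58.3% of siNC with siOGT1 and 63.2% with siOGT2. It measured 13.8 and 12.9 FPKM with siOGT1, 14.3 and 14.7 with siOGT2, and 22.4 and 23.4 with siNC. Of the granulosa markers, 4 of 8 had a mean of at least 1 FPKM: FOXL2, INHBB, GATA4 and NR5A1. FSHR, the receptor of follicle-stimulating hormone, stood at 0 in each library, and AMHR2 and CYP19A1 were at or near 0. The summed granulosa markers ran from 31.3 to 33.0 FPKM with siOGT1, 31.2 to 32.2 with siOGT2 and 28.1 to 29.3 with siNC. None of the 6 leukocyte markers reached 1 FPKM, with LYZ at 0, and their sum ran from 0.580 to 0.606 with siOGT1, 0.475 to 0.672 with siOGT2 and 0.794 to 0.866 with siNC. Of 5 endothelial markers only TEK reached 1 FPKM, with sums of 2.08 to 2.45 with siOGT1, 2.27 to 2.67 with siOGT2 and 2.78 to 2.95 with siNC. Mitochondrial transcripts took 2.07% and 2.09% of reads with siOGT1, 2.31% and 2.34% with siOGT2 and 2.01% and 1.99% with siNC. The part of these marker and mitochondrial differences in the results below was not tested. In bulk RNA, fewer cells making a transcript and less transcript per cell cannot be told apart.

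Tests were made with limma on log2(FPKM + 1) for the 10547 genes with a mean of at least 1 FPKM, two-sided, and a gene was called where its Benjamini-Hochberg adjusted p, over all of them, was under 0.05. Of the 10 genes, 9 passed this filter. The added 1 makes log2 fold changes smaller than those of the FPKM, most for low genes. No label says whether the libraries of 1 group were separate cultures, so the p-values measure the spread between these libraries, which may be technical.

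With siOGT2, 6 of the 9 tested genes were lower than with siNC and none higher, where 35.5% of all tested genes were called, 13.4% lower and 22.1% higher. With siOGT1, 2 of 9 were lower and none higher, where 17.6% of all tested genes were called, 8.1% lower and 9.51% higher. TNFAIP3 and BIRC3 were lower with each siRNA, as were 5.11% of all tested genes. Over all genes the balance depended on the scaling. With siOGT2, 2329 genes were called higher and 1411 lower, and after rescaling by a trimmed mean of log ratios the counts were 1374 and 1865. With siOGT1, 1003 were called higher and 854 lower, against 548 and 1008 after that rescaling. The median log2 fold change of the 9 genes was -0.31 with siOGT2 and -0.07 with siOGT1, and over all tested genes it was 0.045 and 0.032. The siRNAs share their siNC libraries, so the comparisons are not independent. In the mean of both siRNAs, 5 of 9 genes were lower, where 31.1% of all tested genes were called, 11.8% lower and 19.4% higher. Those are 2041 genes higher and 1243 lower, against 1121 and 1651 after the rescaling.

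**Figure D1:**
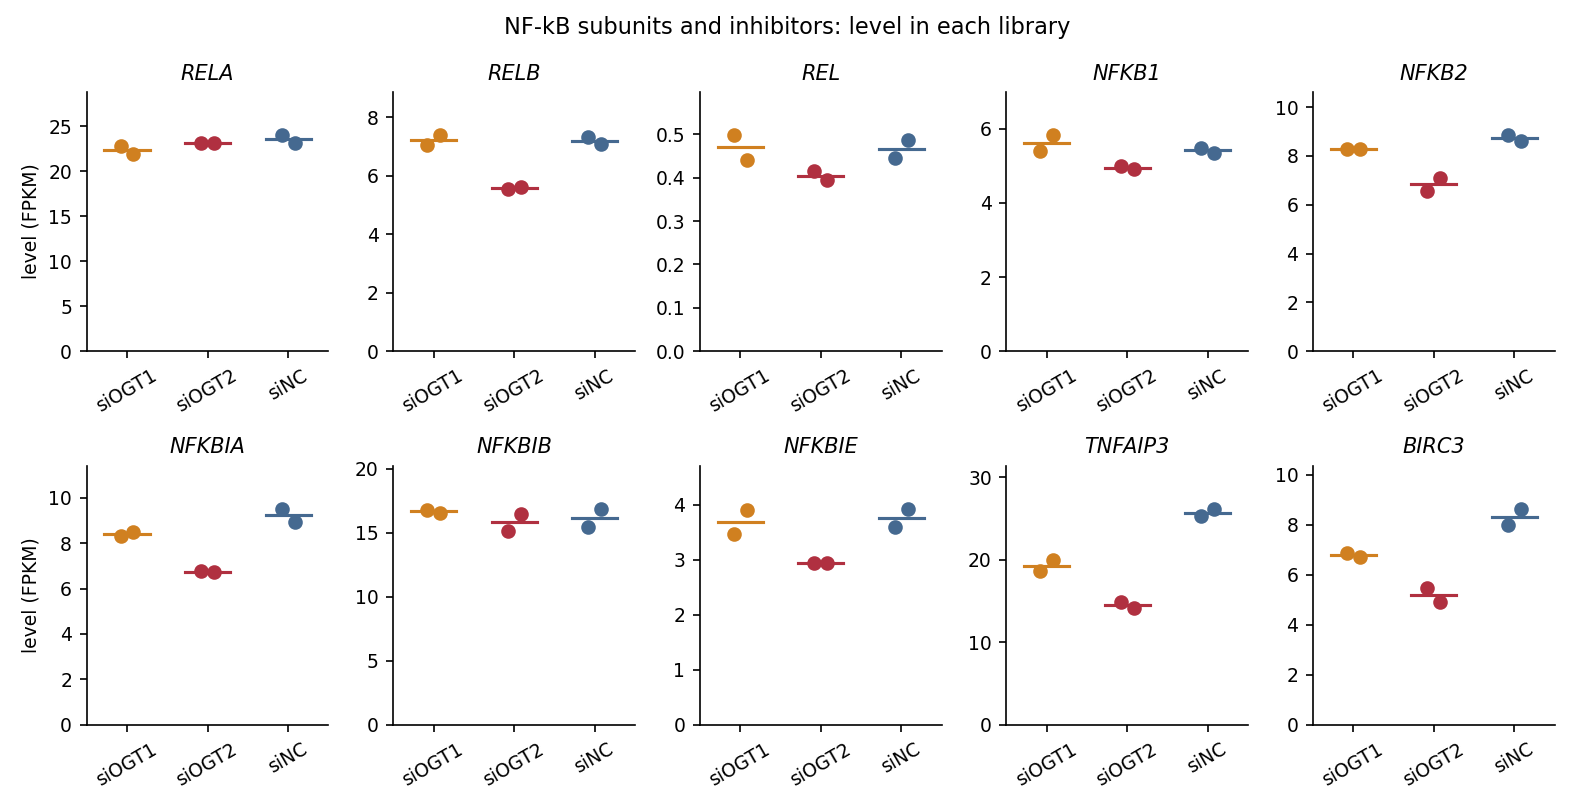
FPKM (vertical axes, each from 0) of the 10 genes in each library, with siOGT1, siOGT2 and siNC along the horizontal axis; points are libraries and bars are means of 2. TNFAIP3, BIRC3, NFKBIA and NFKB2 form 3 groups without overlap, lowest with siOGT2. RELB, NFKBIE, NFKB1 and REL are also lowest with siOGT2, and RELA and NFKBIB are close to siNC in every group.

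RELA (ENSG00000173039, GRCh38 chromosome 11, 65653596 to 65663094, minus strand) encodes p65, the main activating subunit of the canonical dimer. It measured 22.85 and 21.97 FPKM with siOGT1, 23.2 and 23.2 with siOGT2, and 24.0 and 23.1 with siNC. The siOGT2 values lie within the range of the siNC values, and the siOGT1 values lie just below it. The log2 fold change was -0.07 with siOGT1 (95% interval -0.15 to 0.01, limma adjusted p = 0.226) and -0.02 with siOGT2 (-0.11 to 0.06, adjusted p = 0.658). RELA was the tested gene of the family with the narrowest intervals, on 2121 to 2643 reads per library.

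RELB (ENSG00000104856, chromosome 19, 45001430 to 45038198, plus strand) encodes the activating subunit of the non-canonical dimer. It measured 7.05 and 7.39 FPKM with siOGT1, 5.54 and 5.62 with siOGT2, and 7.32 and 7.08 with siNC. The siOGT1 and siNC values overlap, and both siOGT2 values are below all others. With siOGT2 RELB fell by 0.32 on the log2 scale (SE 0.0467, limma adjusted p = 0.00101), to 77.5% of the siNC level. With siOGT1 the log2 fold change was 0.0028 (95% interval -0.10 to 0.11, adjusted p = 0.975). The mean over both siRNAs was called at -0.16 (adjusted p = 0.0171), but not without siNC replicate 1 (adjusted p = 0.125) or siNC replicate 2 (0.0618).

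REL (ENSG00000162924, chromosome 2, 60881521 to 60931610, plus strand) encodes c-Rel, a subunit best known from lymphocytes. It was listed at 0.498 and 0.442 FPKM with siOGT1, 0.416 and 0.394 with siOGT2, and 0.446 and 0.488 with siNC, on 113 to 168 reads per library. Both siOGT2 values are below the others and the siOGT1 and siNC values overlap. REL was below the filter for testing, and in a fit of all 17114 genes above 0 it did not pass with siOGT2 (log2 fold change -0.06, 95% interval -0.16 to 0.03, limma adjusted p = 0.334) or with siOGT1 (0.0027, -0.09 to 0.10, adjusted p = 0.997). A same-strand non-coding gene shares 5702 exonic bases with REL, so these reads could come from either.

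NFKB1 (ENSG00000109320, chromosome 4, 102501329 to 102617302, plus strand) encodes p105, which is both an IkB-like inhibitor and the precursor of p50. It measured 5.398 and 5.828 FPKM with siOGT1, 5.00 and 4.91 with siOGT2, and 5.49 and 5.35 with siNC. The siOGT2 values are the lowest, close beneath the siNC values. With siOGT2 the log2 fold change was -0.11 (95% interval -0.23 to 0.01, limma adjusted p = 0.13), and with siOGT1 it was 0.04 (-0.08 to 0.16, adjusted p = 0.631). With siOGT2 NFKB1 was called lower in 2 alternatives, the trimmed mean scaling (-0.15, adjusted p = 0.0499) and voom, run on the recovered reads (-0.13, adjusted p = 0.0315).

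NFKB2 (ENSG00000077150, chromosome 10, 102394110 to 102402529, plus strand) encodes p100, the inhibitor and precursor of p52. It measured 8.28 and 8.31 FPKM with siOGT1, 6.57 and 7.11 with siOGT2, and 8.85 and 8.63 with siNC. The groups do not overlap, and siOGT1 lies close under siNC. NFKB2 fell with siOGT2 to 78.3% of the siNC level (log2 fold change -0.31, SE 0.0479, limma adjusted p = 0.00123). With siOGT1 it did not pass (-0.07, 95% interval -0.18 to 0.04, adjusted p = 0.367). Averaged over both siRNAs it was called (-0.19, adjusted p = 0.00825), and without siNC replicate 1 it was not (adjusted p = 0.0735).

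NFKBIA (ENSG00000100906, chromosome 14, 35401511 to 35404749, minus strand), the IkB that NF-kB itself induces, measured 8.31 and 8.50 FPKM with siOGT1, 6.78 and 6.72 with siOGT2, and 9.52 and 8.95 with siNC. The 3 groups do not overlap. The gene fell to 73.1% of siNC with siOGT2 (log2 fold change -0.40, SE 0.0458, limma adjusted p = 0.000237). With siOGT1 it stood at 91.0% and did not pass (-0.12, 95% interval -0.22 to -0.02, adjusted p = 0.101). The mean of both siRNAs was called at -0.26 (adjusted p = 0.00132).

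NFKBIB (ENSG00000104825, chromosome 19, 38899700 to 38908893, plus strand), which encodes IkB beta, measured 16.8 and 16.5 FPKM with siOGT1, 15.1 and 16.5 with siOGT2, and 15.4 and 16.9 with siNC. The siNC values overlap those of both siRNAs. Both siOGT2 values lie below both siOGT1 values, replicate 2 only just (16.49 with siOGT2 against 16.52 with siOGT1). The lowest value is that of siOGT2 replicate 1. Neither siRNA passed, with a log2 fold change of 0.04 (95% interval -0.07 to 0.16, limma adjusted p = 0.618) for siOGT1 and -0.03 (-0.15 to 0.09, adjusted p = 0.697) for siOGT2. The antisense neighbour SIRT2 shares 40 exonic bases with NFKBIB, and the sources used here do not give the strand setting of the counting.

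NFKBIE (ENSG00000146232, chromosome 6, 44258166 to 44265788, minus strand), which encodes IkB epsilon, measured 3.47 and 3.91 FPKM with siOGT1, 2.95 and 2.94 with siOGT2, and 3.60 and 3.93 with siNC. The siOGT1 values overlap those of siNC, and both siOGT2 values lie below them. It rested on 127 to 216 reads per library, the fewest of the tested members. With siOGT2 it fell to 78.2% of siNC (log2 fold change -0.27, SE 0.0649, limma adjusted p = 0.0112). This call was lost when siNC replicate 2 (adjusted p = 0.082) or siOGT2 replicate 2 (0.0553) was left out. With siOGT1 the log2 fold change was -0.02 (95% interval -0.17 to 0.12, adjusted p = 0.847).

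TNFAIP3 (ENSG00000118503, chromosome 6, 137867188 to 137883312, plus strand) encodes A20, which removes and rebuilds ubiquitin chains on signalling adaptors and so ends NF-kB activation. It measured 18.59 and 20.01 FPKM with siOGT1, 14.9 and 14.1 with siOGT2, and 25.3 and 26.2 with siNC. The groups are 3 separate steps, and the changes were the largest of the 10 genes. The log2 fold change was -0.40 with siOGT1 (SE 0.0456, limma adjusted p = 0.000383), at 74.97% of siNC, and -0.78 with siOGT2 (SE 0.0456, adjusted p = 2.86e-06), at 56.5%. An antisense gene shares 95 exonic bases with TNFAIP3.

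BIRC3 (ENSG00000023445, chromosome 11, 102317450 to 102339403, plus strand) encodes cIAP2, a ubiquitin ligase of the tumour necrosis factor receptor complex that is itself an NF-kB target. It measured 6.87 and 6.71 FPKM with siOGT1, 5.45 and 4.92 with siOGT2, and 7.98 and 8.64 with siNC, again in 3 separate steps. With siOGT2 it fell to 62.4% of siNC (log2 fold change -0.59, SE 0.0577, limma adjusted p = 8.66e-05). With siOGT1 it fell to 81.7% (-0.26, SE 0.0577, adjusted p = 0.0154), and this call ended without siNC replicate 2 (adjusted p = 0.112), without siOGT1 replicate 2 (0.0712) and with no filter on low values (0.0672).

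**Figure D2:**
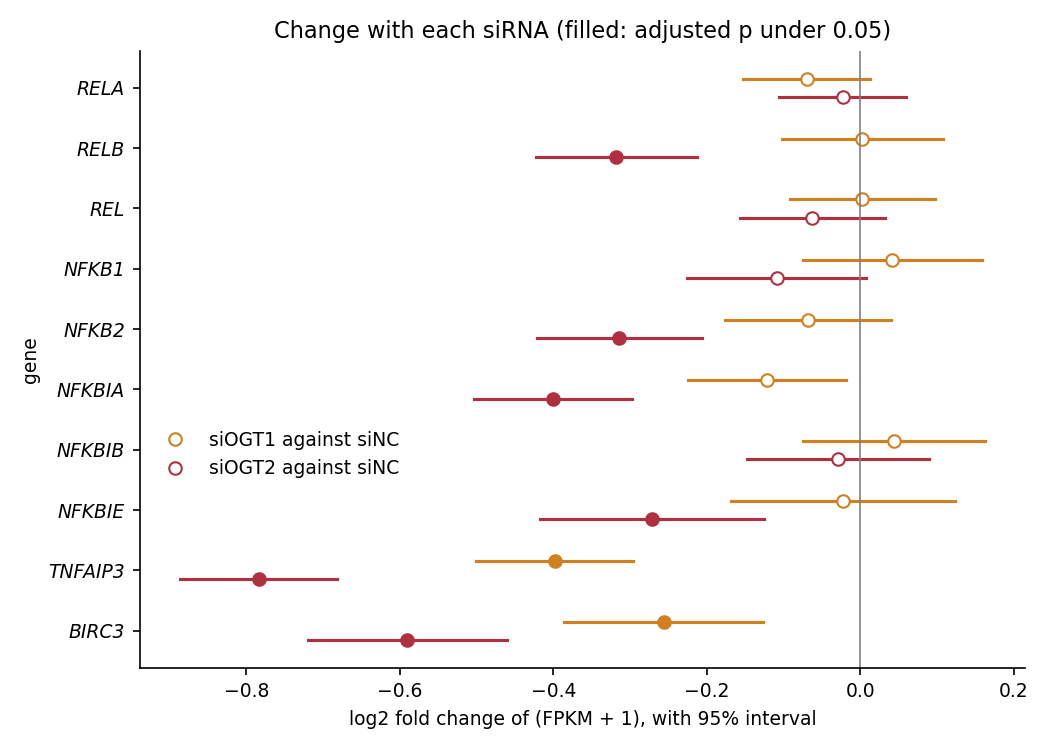
Log2 fold change of FPKM + 1 (horizontal axis) with its 95% interval for each gene (rows), with siOGT1 above siOGT2 in each row; filled points have an adjusted p under 0.05, and REL is from the unfiltered fit. Filled points are 2 for siOGT1 and 6 for siOGT2, all left of 0, and RELA and NFKBIB lie near 0 with both siRNAs.

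The siRNAs were compared directly, with siOGT1 against siOGT2, where a positive value means higher with siOGT1. This comparison shares its siOGT2 libraries with that of siOGT2 against siNC and is not independent of it. 6 of the 9 tested genes were higher with siOGT1 and none lower, where 16.6% of all tested genes were called, 8.35% higher and 8.24% lower. The log2 fold change was 0.39 for TNFAIP3 (SE 0.0456, limma adjusted p = 0.000517), 0.33 for BIRC3 (SE 0.0577, adjusted p = 0.00451), 0.32 for RELB (SE 0.0467, adjusted p = 0.00173) and 0.28 for NFKBIA (SE 0.0458, adjusted p = 0.00338). NFKB2 differed by 0.25 (SE 0.0479, adjusted p = 0.00804) and NFKBIE by 0.25 (SE 0.0649, adjusted p = 0.0291). OGT itself did not pass in this comparison (-0.11, 95% interval -0.21 to -0.01, adjusted p = 0.123), with its lower values in siOGT1, and it did pass with voom, run on recovered reads (-0.12, adjusted p = 0.0342). The NFKB2 call ended without siOGT2 replicate 1 (adjusted p = 0.0554), and the NFKBIE call was kept in 10 of 15 alternative settings.

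NFKB1, at 0.15 (95% interval 0.03 to 0.27, limma adjusted p = 0.0806), NFKBIB, at 0.07 (-0.05 to 0.19, adjusted p = 0.392), and RELA, at -0.05 (-0.13 to 0.04, adjusted p = 0.434), did not pass between the siRNAs. NFKB1 did with voom (0.18, adjusted p = 0.00497). Library by library, both siOGT2 values were below both siOGT1 values in 8 of the 9 tested genes, and RELA was the exception. That pattern was present in 27.7% of all tested genes. Both siOGT1 values were below both siNC values in 5 of the 9, a pattern of 21.3% of all tested genes, and both siOGT2 values in 7 of the 9, a pattern of 25.1%. All 4 siOGT libraries were below both siNC libraries for NFKB2, NFKBIA, TNFAIP3 and BIRC3, a pattern of 13.3% of all tested genes.

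Levels of different genes can be set side by side per length, with a limit. The gene lengths behind the FPKM, worked back with the reads, were longer than the longest coding transcript in GENCODE release 29 for 9 of the 10 genes. The length was 15679 bases for NFKB1, whose longest coding transcript has 4085, and 3394 for NFKBIA, whose longest has 1558. Such lengths lower a gene's FPKM by the same factor in every library, and they shift the order of genes. Ratios of a gene's FPKM between groups do not depend on them, but log2 changes of FPKM + 1 and shares within the family do. In FPKM with siNC, TNFAIP3 stood highest at 25.7 ± 0.662 (SD, n = 2), then RELA at 23.6 ± 0.656, NFKBIB at 16.1 ± 1.03, NFKBIA at 9.23 ± 0.401 and NFKB2 at 8.74 ± 0.158. BIRC3 followed at 8.31 ± 0.469, RELB at 7.20 ± 0.166, NFKB1 at 5.42 ± 0.102, NFKBIE at 3.76 ± 0.237 and REL at 0.467 ± 0.0293. The libraries of BIRC3 and NFKB2 overlapped, and those of the other neighbours in this order did not. Per kilobase of the longest coding transcript, RELA came first at 40.4, then TNFAIP3 at 34.8, and NFKB1 moved up to 20.8 beside NFKBIA at 20.1 and NFKBIB at 19.5.

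With siOGT2 the order in FPKM changed at the top: RELA stood at 23.2 ± 0.0284, NFKBIB at 15.8 ± 0.963 and then TNFAIP3 at 14.5 ± 0.565. With siOGT1 RELA was also first, at 22.4 ± 0.617, and TNFAIP3 second, at 19.3 ± 0.999. This change of order depends on the length used. Per kilobase of the longest coding transcript RELA was first with siNC already, and it stayed first with siOGT2, at 39.7 and 39.8. There TNFAIP3, at 20.2 and 19.1, overlapped NFKBIB, at 18.2 and 19.9, and NFKB1, at 19.2 and 18.8.

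RELA made up the largest share of the summed FPKM of the 5 subunits in each library. Its share was 51.84% and 50.02% with siOGT1, 56.9% and 56.3% with siOGT2, and 52.1% and 51.7% with siNC. The siOGT2 libraries stand above the rest, while the shares of RELB (13.6% in each siOGT2 library, 15.9% in each siNC library) and NFKB2 (16.1% and 17.2% with siOGT2, 19.2% and 19.3% with siNC) were smaller. NFKB1 held 12.3% and 11.9% with siOGT2 and 11.9% and 12.0% with siNC. The summed subunits came to 44.1 and 43.9 FPKM with siOGT1, 40.7 and 41.2 with siOGT2, and 46.1 and 44.7 with siNC.

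The ratio of NFKBIA to RELA FPKM was 0.364 and 0.387 with siOGT1, 0.293 and 0.290 with siOGT2, and 0.396 and 0.387 with siNC. The siOGT2 libraries lie lowest, and both siOGT1 values lie under the siNC values, 1 of them only just. The ratio of the 3 IkB genes together to the 5 subunits was 0.649 and 0.658 with siOGT1, 0.611 and 0.634 with siOGT2, and 0.618 and 0.666 with siNC. In that ratio the siNC values overlap those of both siRNAs, and both siOGT2 values lie below both siOGT1 values. With the length of the longest coding transcript in place of the authors' length it was 0.5015 and 0.5043 with siOGT1, 0.4637 and 0.479 with siOGT2, and 0.4931 and 0.5195 with siNC, so that siOGT2 no longer overlaps siNC. At that length RELA's share with siOGT2 minus that with siNC was 3.86 percentage points, against 4.68 in FPKM. The NFKBIA to RELA ratio with siOGT2 minus that with siNC was -0.128 at that length, against -0.1005 in FPKM. These shares and ratios are descriptions of 2 libraries a group and were not tested.

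**Figure D3:**
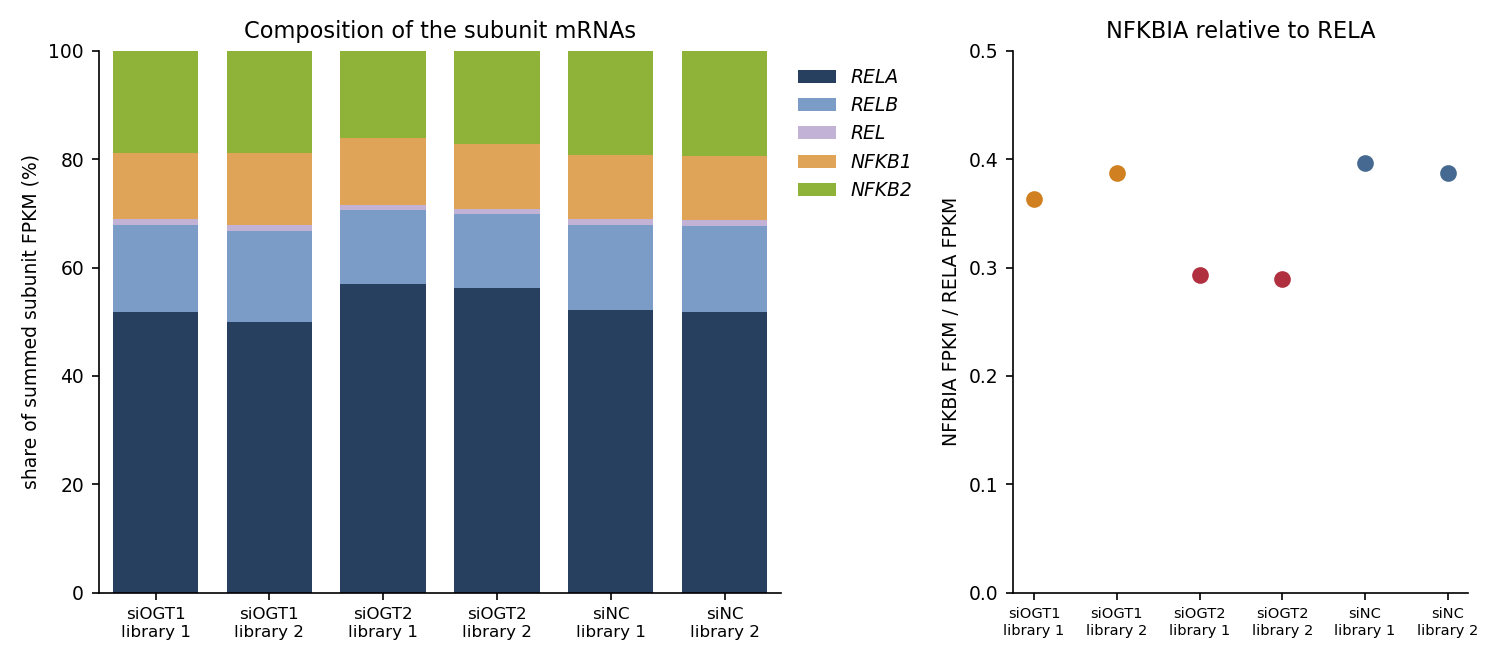
Left, share of the summed subunit FPKM (vertical axis, percent) held by each subunit in each of the 6 libraries; right, NFKBIA FPKM over RELA FPKM in the same libraries, siOGT1, siOGT2 and siNC from left to right. The RELA segment is tallest in the siOGT2 libraries (56.9% and 56.3%), and the ratio is lowest there (0.293 and 0.290).

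The rest of the pathway was read from 5 lists of genes that act before, beside or after these 10, with 108 genes of which 83 were tested. The lists were chosen with earlier results of these data known, so the counts describe these lists and do not test the pathway. In the mean of both siRNAs 8 were higher and 30 lower, where 19.4% of all tested genes were higher and 11.8% lower. The median log2 fold change was -0.057, and it was 0.036 over all tested genes. The counts and medians of each list below are also for the mean of both siRNAs, to be read beside these same shares of all tested genes.

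Upstream, the IkB kinase complex with its receptors, adaptors and kinases had 28 tested genes, of which 2 were higher and 7 lower, with a median of 0.019. The adaptor MYD88, which links Toll-like and interleukin-1 receptors to the pathway, measured 22.6 and 20.7 FPKM with siOGT1, 19.9 and 17.4 with siOGT2, and 36.6 and 33.4 with siNC. TLR3, the endosomal receptor for double-stranded RNA, measured 19.2 and 16.4 with siOGT1, 13.4 and 11.9 with siOGT2, and 26.4 and 24.9 with siNC. In both genes every siOGT value is below every siNC value. In the mean of both siRNAs MYD88 fell by 0.77 on the log2 scale (limma adjusted p = 1.51e-05) and TLR3 by 0.74 (adjusted p = 3.48e-05). RBCK1 (HOIL-1), part of the linear ubiquitin ligase, fell by 0.53 (adjusted p = 0.000142).

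BIRC2 encodes cIAP1, the paralog of BIRC3 and its neighbour in the receptor complex. It measured 55.9 and 58.1 FPKM with siOGT1, 42.1 and 41.4 with siOGT2, and 61.9 and 61.4 with siNC. It fell with siOGT1 by 0.11 on the log2 scale (limma adjusted p = 0.0389) and with siOGT2 by 0.55 (adjusted p = 2.69e-06). BIRC2 was thus at several times the FPKM of BIRC3 in each library. How the counting treated reads that fit both of these similar genes was not tested.

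The ubiquitination machinery that marks IkB had 9 tested genes, of which 1 was higher and 1 lower, with a median of 0.025. The ubiquitin-conjugating enzyme UBE2D3 stood at 50.97 ± 0.198 FPKM with siOGT1, 46.0 ± 0.146 with siOGT2 and 55.5 ± 0.972 with siNC (SD, n = 2), a fall of 0.19 averaged over both siRNAs (limma adjusted p = 0.000659). FBXW11, a substrate receptor for phosphorylated IkB, was higher by 0.09 (adjusted p = 0.0473), a call that most alternatives did not keep, with adjusted p up to 0.236.

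Other inhibitors of the pathway had 17 tested genes, of which 1 was higher and 4 lower, with a median of -0.053. N4BP1, an inhibitor of NF-kB signalling, stood at 15.3 ± 0.0802 FPKM with siOGT1, 13.1 ± 0.835 with siOGT2 and 19.7 ± 0.189 with siNC, a fall of 0.45 averaged over both siRNAs (limma adjusted p = 4.37e-05). The deubiquitinase CYLD fell by 0.17 (adjusted p = 0.00143). NFKBIZ, a nuclear IkB, fell by 0.20 (adjusted p = 0.00873), and was not called when siNC replicate 1 (adjusted p = 0.052) or siNC replicate 2 (0.0685) was left out. TAX1BP1, an adaptor through which TNFAIP3 acts, rose: it stood at 51.0 ± 0.892 FPKM with siOGT1, 49.6 ± 0.124 with siOGT2 and 44.6 ± 0.218 with siNC, a log2 fold change of 0.17 (adjusted p = 0.00136), whereas TNFAIP3 fell.

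Of 19 cytokine and chemokine targets of NF-kB, 8 had a mean of at least 1 FPKM. Of those 7 were lower and none higher, with a median of -0.314, where 11.8% of all tested genes were lower and 19.4% higher. The chemokine gene CCL5 was listed at 1.56 and 1.53 FPKM with siOGT1, 0.663 and 0.597 with siOGT2, and 2.71 and 2.75 with siNC. IL6, the gene of interleukin-6, measured 3.29 and 3.42 with siOGT1, 2.52 and 2.49 with siOGT2, and 4.13 and 3.96 with siNC. Each shows 3 separate steps. In the mean over both siRNAs CCL5 fell by 0.88 on the log2 scale (limma adjusted p = 6.3e-06) and IL6 by 0.37 (adjusted p = 0.000523). The sizes depend on the pseudocount and the test, and over the alternatives they ran from -1.45 to -0.35 for CCL5 and from -0.48 to -0.19 for IL6, each with an adjusted p under 0.05. The growth factor genes CSF1 and LIF fell by 0.26 (adjusted p = 0.000195) and 0.25 (adjusted p = 0.00101).

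Of 30 other targets 21 were tested, with 4 higher, 11 lower and a median of -0.148. The members with the smallest p were GBP1, a guanylate-binding GTPase, IFIH1, the RNA sensor MDA5, the stress factor ATF3 and the transcription factor IRF1. They fell by 1.06 (limma adjusted p = 1.9e-06), 1.02 (adjusted p = 3.63e-06), 0.61 (adjusted p = 3.96e-06) and 0.69 (adjusted p = 1.15e-05), averaged over both siRNAs. Among these, GBP1, IFIH1 and IRF1 are also induced by interferon. The other pathway genes named here were not sorted by that property. The list did not move as one: PLAU, the gene of urokinase, chosen after its values were seen, measured 6.71 and 6.32 FPKM with siOGT1, 9.80 and 10.8 with siOGT2, and 5.69 and 6.17 with siNC. It rose with siOGT2 by 0.71 on the log2 scale (adjusted p = 3.32e-05).

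**Figure D4:**
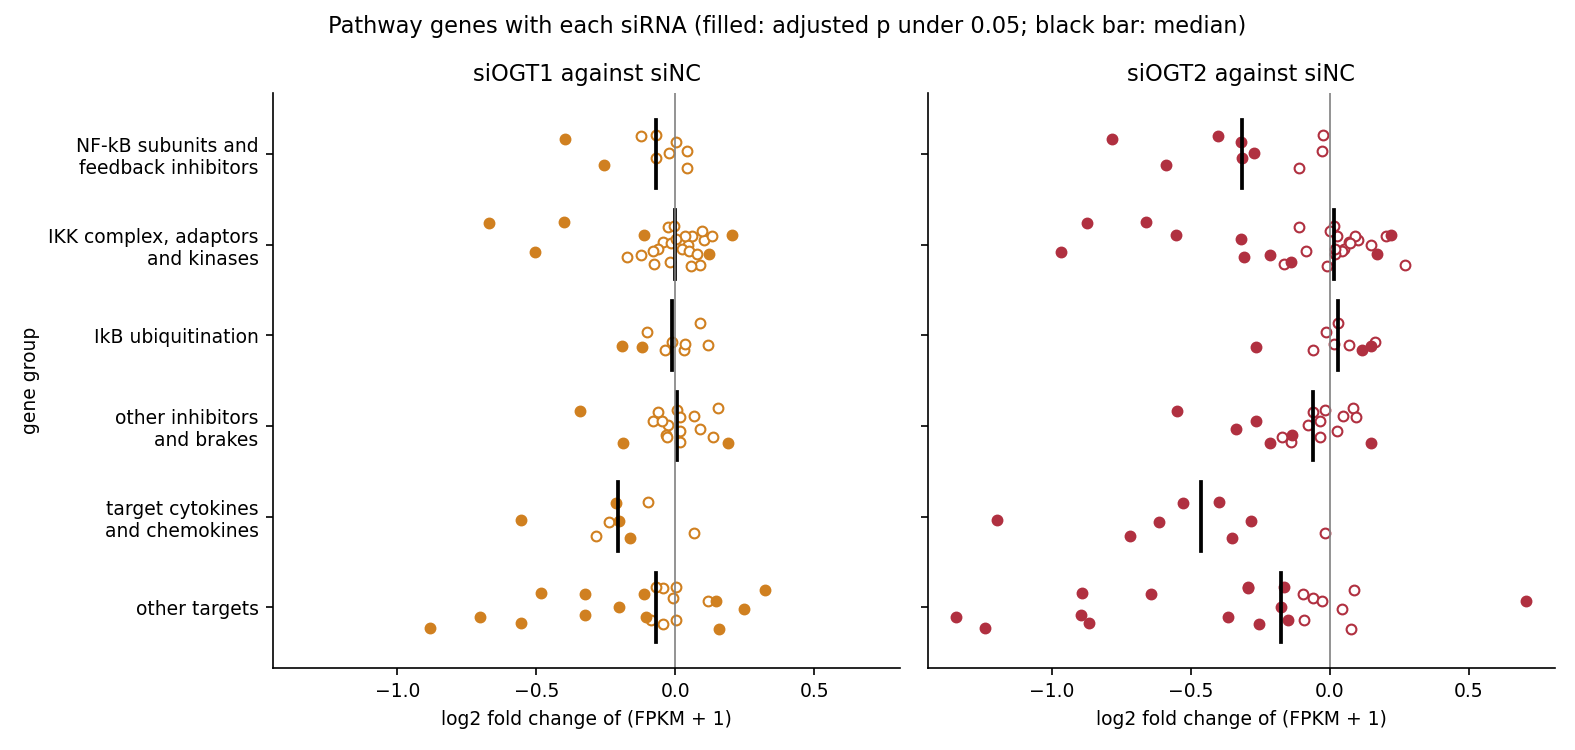
Log2 fold change of FPKM + 1 (horizontal axes) of the tested genes in each group of the pathway (rows), with siOGT1 on the left and siOGT2 on the right; filled points have an adjusted p under 0.05 and black bars are medians. With siOGT2 the medians of the NF-kB genes (-0.314) and of the target cytokines (-0.464) lie left of 0, and those of the upstream genes (0.017) and the IkB ubiquitination genes (0.031) lie close to 0.

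The genes whose profiles lay closest to those of the members called in the mean of both siRNAs were found by the root mean square difference of centred log2(FPKM + 1) over the 6 libraries. For NFKB2 these were JUNB, an AP-1 subunit gene (0.0166), and PPIF, a mitochondrial cyclophilin gene (0.0243). For RELB they were MTF2, a Polycomb accessory gene (0.0137), and EIF5, a translation initiation factor gene (0.0192). MTF2 stood at 99.9% of siNC with siOGT1 and 77.5% with siOGT2, where RELB stood at 100.2% and 77.5%. For NFKBIA the closest were TRA2A, a splicing regulator gene (0.0177), and PLAAT3 (0.0247). For TNFAIP3 they were KBTBD8 (0.0484) and SP100, a nuclear body gene (0.0564), and for BIRC3 LNPEP, an aminopeptidase gene (0.0392), and RND3 (0.0449). These are descriptions over 6 libraries in 3 groups.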

How the data were processed

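RNA of 6 KGN libraries was sequenced. The submitters' processing notes name cutadapt 1.15, HISAT2 and GRCh38. Counting program, annotation and strand setting: not given in the sources used here. Deposited by the authors were FPKM values for 20036 genes. Symbols came from a gene name table (20011 identifiers matched) and coordinates from GENCODE release 29.

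Whole reads were recovered from the FPKM steps, within 0.01 reads, for 100.0% of tested genes, and served for depth, gene lengths and 1 alternative test. Genes with a mean of at least 1 FPKM were fitted as log2(FPKM + 1) with limma 3.58.1 in R 4.3.3, 1 mean per group over all 6 libraries, an intensity trend, 3 residual degrees of freedom plus 6.31 from the prior. The code of the fit was also run on simulated counts with the same relative spread for all genes. That run does not test how well the fit holds for these data. Adjusted p-values are over all 10547 tested genes.

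Named pathway genes are up to 4 of each list with the smallest p among those called in the mean of both siRNAs; each called member is given with its 2 closest profiles. The members, lists, tests and rules were chosen with earlier results of these data known. Alternatives changed the pseudocount, filter, scaling, variance model, samples fitted, replicate block, unit and each library. The length alternative for subunit shares was chosen after seeing the data.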

Additional observations from a re-analysis of the deposited data

Results flagged for a closer look

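6 genes were singled out because the difference between the effects of the siRNAs passed its own test, siOGT1 against siOGT2 in limma: TNFAIP3 (log2 fold change 0.39), BIRC3 (0.33), RELB (0.32), NFKBIA (0.28), NFKB2 (0.25) and NFKBIE (0.25), each higher with siOGT1. OGT mRNA stood at 58.3% of siNC with siOGT1 and 63.2% with siOGT2. That difference did not pass (log2 fold change -0.11, limma adjusted p = 0.123), and it passed in 1 of 16 alternatives. Its part in the differences of the 6 genes was not tested. The siOGT2 libraries also had the higher mitochondrial share of reads (2.31% and 2.34%, against 2.07% and 2.09% with siOGT1), whose part in these differences was not tested. Groups of 2 libraries are too small to look for a library far from the rest.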

How the results depend on the processing

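Of 572 values of the 9 tested genes under alternative settings, 552 kept their side of the threshold, 14 lost a call, 6 gained one and 0 called values changed sign. In the mean of both siRNAs 5 genes were called, and 3 to 6 with 1 library left out; with siOGT1 2, and 1 to 2; with siOGT2 6, and 5 to 6; between the siRNAs 6, and 4 to 6. Without a filter on low values siOGT1 called 1 (BIRC3 lost). Leaving out a library always leaves 1 in its group, which is then assumed to vary like the others. Pathway genes called numbered 38, and 25 to 37 with 1 library left out. Over all genes 3284 were called in the mean of both siRNAs, and 1654 to 2971 with 1 library left out; with siOGT1 1857, and 945 to 1737; with siOGT2 3740, and 2222 to 3749; between the siRNAs 1750, and 816 to 1533. Without the filter the count was 1138 for siOGT1 and 1017 between the siRNAs. The cause was not tested. With voom, run on the recovered reads, 3861 genes were called in the mean of both siRNAs, 2553 with siOGT1, 4227 with siOGT2 and 2280 between the siRNAs.

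The replicate numbers share no stated origin, and differences between replicates 1 and 2 correlated across genes at -0.022, -0.026 and 0.049 between groups. With the replicate number as a block 5 genes were called in the mean of both siRNAs, 2 with siOGT1, 6 with siOGT2 and 6 between the siRNAs, as without it. REL, at 113 to 168 reads, and NFKBIE, at 127 to 216, have the least depth.

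A pseudocount of 5 lowered the log2 fold changes of low genes by over 1.5 times without ending a call. With siOGT2 they became -0.39 for BIRC3, -0.21 for RELB and -0.14 for NFKBIE, and between the siRNAs 0.21, 0.21 and 0.13. As means over both siRNAs they became -0.28 for BIRC3, -0.10 for RELB, -0.36 for IRF1 and -0.13 for NFKBIZ.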
